A study of Sus scrofa with 10 samples.

Results

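The genes described here are proliferation genes, whose products copy the chromosomes or carry a cell through mitosis. Of 58 genes listed by function, 54 had a probe set with their symbol among the 13755 named genes of the pig array, and CCNA2, E2F8, AURKA and KIF20A were not analysed here. Each gene was read from 1 probe set, the one with the highest mean over the 10 arrays. The 54 genes were grouped by role: 11 act in replication licensing and at the fork, 4 in nucleotide supply, 6 are cyclins and their partners, 2 are transcription factors and 10 are mitotic or checkpoint kinases and checkpoint proteins. A further 4 act at anaphase, 4 at the centromere, 4 in the mitotic chromosome and 9 at the spindle and midzone.

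Most macrophages of the lung are resting cells, and CSF-1 is a growth factor that can bring macrophages into division. A cell that divides first loads the MCM helicase onto its origins, raises its supply of nucleotides and copies its DNA under the control of E2F factors. It then makes a second set of products, among them cyclin B1, the mitotic kinases and the motor proteins of the spindle, in G2 and mitosis, and destroys many of them as it divides. Transcripts of the second set are scarce in resting cells and are widely used as a sign of cells in cycle.

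RNA was measured in alveolar macrophages of 5 Hampshire pigs, with 1 array of non-adherent and 1 array of adherent cells from each animal. Cells of both groups had been frozen, thawed and held overnight in medium with recombinant human CSF-1, and all 10 samples are labelled untreated at 0 h. Non-adherent cells were collected the next day and sorted by cytometry for large, granular cells. Arrays of the adherent cells had been made for a previous series from these same pigs, no sort is described for them, and their protocol text also speaks of removing adherent cells and of stimulation with lipopolysaccharide at 100 ng/ml. Adherence, the sort and the array series therefore cannot be told apart in any difference between the groups. Ages are not given, and RNA came from whole cell preparations. More cells in cycle and more RNA per cycling cell cannot be told apart.

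The values are deposited log2 probe set values with array medians between 4.97 and 5.09. Hybridization spike-in controls averaged a log2 of 9.67 to 10.2 on the non-adherent arrays and 8.06 to 8.29 on the adherent arrays, so the array series differ in a control that holds no cell RNA. Background probe sets averaged 4.13 to 4.24 and 4.36 to 4.56, with adherent animal 1 at the highest value. The adherent array of animal 1 stands apart from the other 4 adherent arrays over the whole transcriptome: 677 genes lay at least a log2 of 1 above and 554 at least that far below the median of the other 4, against 35 to 132 above and 35 to 79 below for any other array against the rest of its group. The counts below are therefore given with and without it, and it was left out with its values known. Of 13 macrophage markers, 11 were measured, and their summed log2 level was 101 to 106 on the non-adherent arrays, 93.7 to 99.3 on adherent animals 2 to 5 and 105.8 on adherent animal 1.

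With all 10 arrays, 0 of the 54 genes were higher and 2 were lower in non-adherent cells, against 6.72% and 9.78% of all genes tested (limma, adjusted p threshold 0.05). The 2 genes were PCNA, the sliding clamp of the replication fork, and E2F1, an activator of S phase genes. The median difference, non-adherent minus adherent, was a log2 of 0.10, and 38 of 54 differences were above 0, beside a median of 0.01 over all genes. Adherent animal 1 was the highest of the 10 arrays for 43 of the 54 genes, or 79.6%, against 19.2% of all genes. Its distance from the median of the other 4 adherent arrays had a median of 1.40 on the log2 scale and reached at least 1 for 35 of the 54 genes, against 4.92% of all genes. Without that array, 25 genes were higher and the same 2 were lower in non-adherent cells, against 9.34% and 13% of all genes. The median difference was then 0.36, and 47 of 54 differences were above 0. With the animal as a block, the paired form of the same fit, 0 were higher and 2 lower with all arrays, against 7.85% and 10.4% of all genes, and 27 and 2 without adherent animal 1, against 11.5% and 13.9%. With all 10 arrays the differences of those 25 genes ran from 0.00 to 1.39, with adjusted p from 0.177 to 0.999. In 24 of the 25 genes adherent animal 1 had been the highest array, so its removal alone lowered their adherent mean.

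Some of these values lay at the level of the background probe sets. For CDK1, TTK, MELK, CENPE, NDC80, NCAPG, KIF2C and ASPM all of adherent animals 2 to 5 were at or below the mean of their own array's background probe sets, and for KIF23, DLGAP5 and HMMR 3 of these 4 arrays were. For CDK1 and NDC80 3 of the 5 non-adherent arrays were too. A difference in these genes is one between probe set values, and no fold is given for them. For CCNB2 2 of adherent animals 2 to 5 also lay at or below background, and for CDC6, UBE2C and KIF11 1 of them did. The folds given below for UBE2C thus rest in part on a value at that level. In 39 of the 54 genes none of the 10 arrays lay that low.

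**Figure D1:**
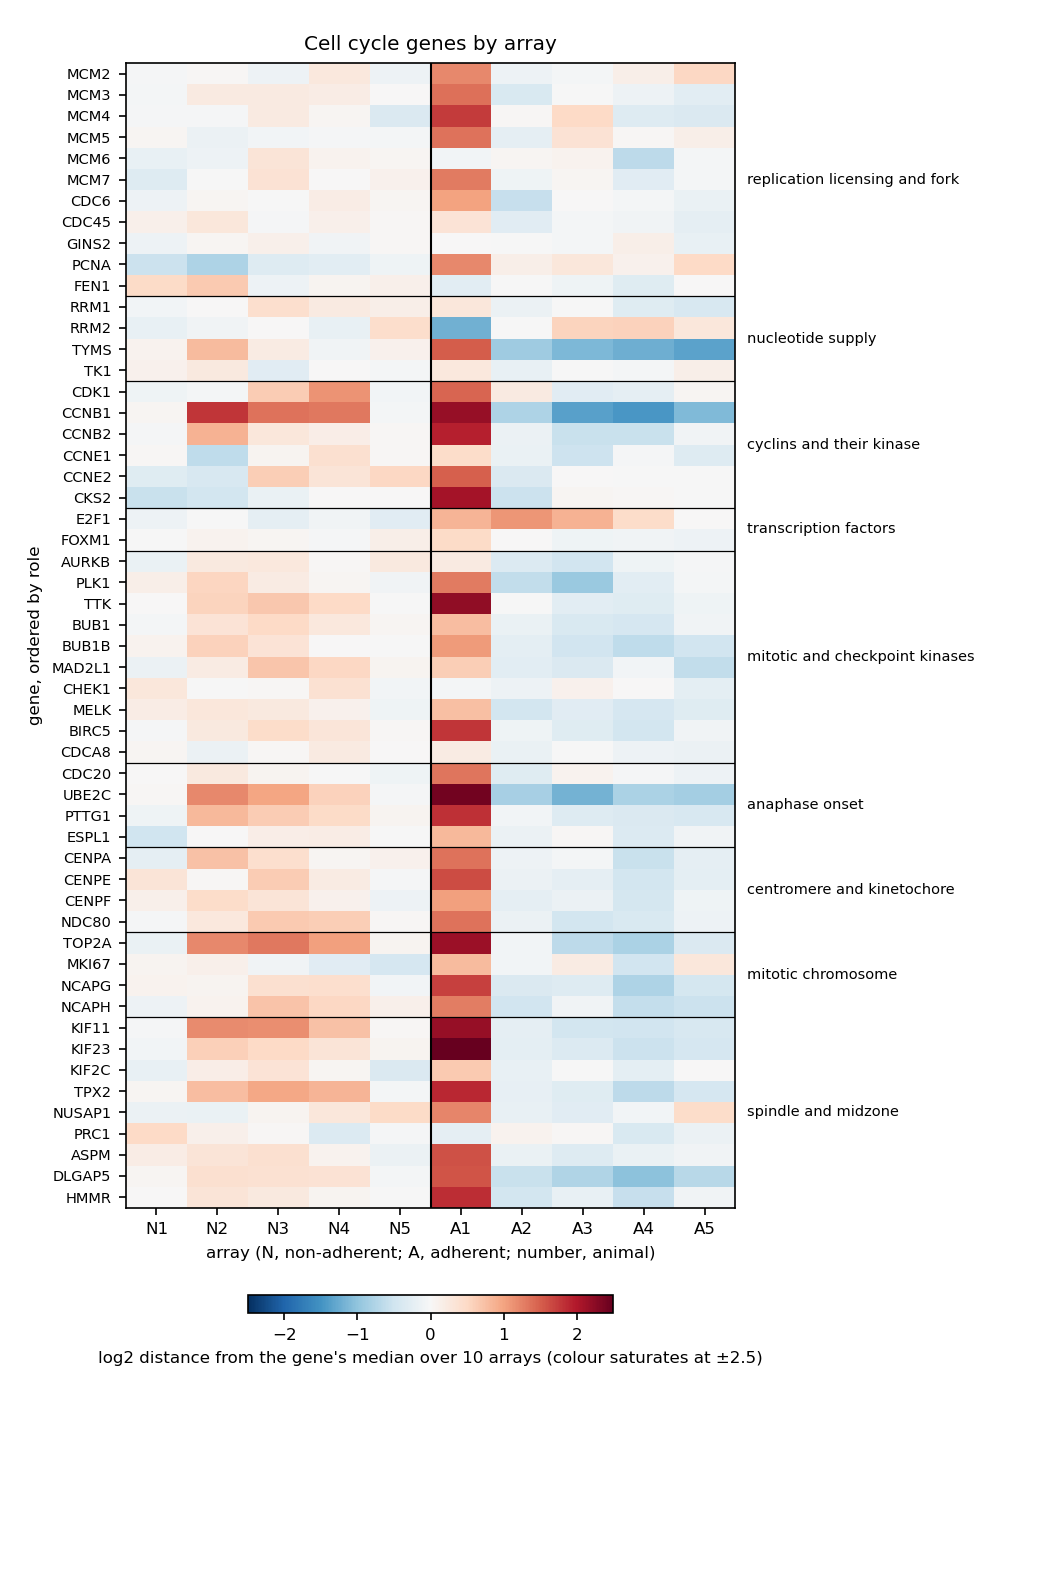
Log2 value of each of the 54 genes (rows, by role) on each of the 10 arrays (columns, non-adherent animals 1 to 5, then adherent animals 1 to 5), as the distance from the gene's median over the 10 arrays. Colour gives the distance on the log2 scale, and the column of adherent animal 1 is the highest of the 10 in 43 rows.

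PCNA holds DNA polymerases on the template during replication and repair. Its log2 values were 8.83, 8.59, 9.04, 9.11 and 9.26 in non-adherent animals 1 to 5 and 10.57, 9.52, 9.65, 9.47 and 9.85 in adherent animals 1 to 5. The groups did not overlap, PCNA was lower in the non-adherent cells of all 5 animals, and adherent animal 1 was the highest array. The means were 8.97 ± 0.26 and 9.81 ± 0.45 (SD, n = 5), a log2 difference of -0.85 ± 0.21 (SE, adjusted p = 0.0186), and without adherent animal 1 the difference was -0.66 ± 0.14 (adjusted p = 0.00731), or 1.58-fold lower. PCNA has 4 probe sets that do not agree, with differences of -0.85, -0.51, -0.24 and -0.25, and without adherent animal 1 the third of these was 0.065. Averaged together they gave a difference of -0.46 (adjusted p = 0.202), or -0.24 without adherent animal 1 (adjusted p = 0.245), and the call was also lost without animal 3 (adjusted p = 0.0633) or animal 5 (adjusted p = 0.053).

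E2F1 was the only other gene of the set past the threshold with all arrays. Its log2 values were 5.99, 6.10, 5.88, 6.02 and 5.83 in non-adherent animals 1 to 5 and 6.95, 7.21, 6.98, 6.56 and 6.12 in adherent animals 1 to 5. All 5 non-adherent arrays lay below the lowest adherent array, that of animal 5, and adherent animal 1 lay within the range of the other adherent arrays. The means were 5.96 ± 0.11 and 6.77 ± 0.43 (SD, n = 5), a difference of -0.80 ± 0.18 (SE, adjusted p = 0.012). It was -0.76 ± 0.19 without adherent animal 1 (adjusted p = 0.0156), and the call was lost without animal 3 (adjusted p = 0.0742). FOXM1, the factor that turns on many G2 and mitosis genes, did not follow E2F1. FOXM1 measured 5.38, 5.47, 5.45, 5.35 and 5.54 in non-adherent animals 1 to 5 and 5.86, 5.39, 5.29, 5.30 and 5.26 in adherent animals 1 to 5. Adherent animal 1 was the highest and the groups overlapped (difference 0.02 ± 0.12, adjusted p = 0.933, and 0.13 ± 0.08, adjusted p = 0.27, without that array).

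On the probe sets used, the other replication genes showed little difference between the groups once adherent animal 1 was set aside. Their other probe sets, looked up after their values were seen, did not all agree. Without that array the MCM7 probe sets differed by 0.12 (the one used), -0.09, -0.57, -0.10 and 0.19. The third passed the threshold in a limma fit over all probe sets (adjusted p = 0.00992). Those of MCM5 differed by -0.13 (the one used), -0.50 and -0.36, and those of CDC45 from -0.48 to 0.37. Of the 11 licensing and fork genes, 8 were highest in adherent animal 1 and the median distance of that array was 1.11. Without it, 1 gene (MCM3) was higher, 1 (PCNA) was lower, and the median difference was 0.12. Among the helicase subunits MCM2, MCM3, MCM4, MCM5, MCM6 and MCM7, adherent animal 1 lay 1.16, 1.57, 1.89, 1.26, -0.06 and 1.36 above the median of adherent animals 2 to 5. MCM6 was thus the 1 of these MCM subunits that was not raised in this array, and its highest array was non-adherent animal 3. MCM4 read 7.99 in adherent animal 1, 5.88 to 6.75 in adherent animals 2 to 5 and 5.88 to 6.46 in non-adherent cells, with a difference of 0.00 ± 0.18 without the first (adjusted p = 0.993). MCM3 differed by 0.01 ± 0.28 with all arrays (adjusted p = 0.991) and by 0.32 ± 0.10 without adherent animal 1 (adjusted p = 0.0467). The MCM3 call was lost when its probe sets were averaged (0.14, adjusted p = 0.248). FEN1, the nuclease that trims Okazaki fragments, read 7.26, 7.44, 6.66, 6.85 and 6.91 in non-adherent animals 1 to 5. In adherent animals 1 to 5 it read 6.51, 6.78, 6.68, 6.49 and 6.79, so that only non-adherent animal 3 fell within the adherent range (difference 0.37 ± 0.15, adjusted p = 0.107, and 0.34 ± 0.15, adjusted p = 0.144, without adherent animal 1). CDC6, which loads the helicase, lay 1.11 higher in adherent animal 1, and CDC45 and GINS2, parts of the active helicase, lay 0.51 and 0.03 higher. On the other CDC45 probe sets that array lay 0.04 to 1.79 higher.

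In nucleotide supply, TYMS, the thymidylate synthase that makes dTMP, differed from its neighbours on the probe sets used. It measured 7.21, 7.91, 7.33, 7.04 and 7.23 in non-adherent animals 1 to 5 and 8.64, 6.24, 6.00, 5.90 and 5.78 in adherent animals 1 to 5. All 5 non-adherent arrays lay above adherent animals 2 to 5 and below adherent animal 1, which stood 2.69 above the median of the other 4, or 6.47-fold. The difference was 0.83 ± 0.48 with all arrays (adjusted p = 0.265) and 1.36 ± 0.17 without that array (adjusted p = 0.000295), or 2.57-fold. RRM1, the large subunit of ribonucleotide reductase, measured 8.28, 8.35, 8.77, 8.58 and 8.50 in non-adherent animals 1 to 5 and 8.63, 8.20, 8.35, 8.04 and 7.96 in adherent animals 1 to 5. Its groups overlapped and it did not pass the threshold (0.26 ± 0.14, adjusted p = 0.234, and 0.36 ± 0.12, adjusted p = 0.056, without adherent animal 1). With the animal as a block it did pass without that array (adjusted p = 0.0198). TK1, a thymidine kinase, lay 0.29 higher in adherent animal 1. RRM2, the small subunit, went the other way and was lowest in adherent animal 1, at 5.26 against 6.45 to 7.04 in adherent animals 2 to 5. Another of its 3 probe sets, chosen after its values were seen, had that array highest, at 6.99 against 3.49 to 3.61 in adherent animals 2 to 5 and 3.72 to 4.16 in non-adherent cells. Without that array this probe set was higher in non-adherent cells by 0.35 in a limma fit over all probe sets (adjusted p = 0.0425). In the same fit the one used was at -0.35 (adjusted p = 0.176). The values of the former in adherent animals 2 to 5 lay below the adherent background means of 4.36 to 4.56. The direction of RRM2 in that array and between the groups thus depends on the probe set.

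The cyclins and their partners were highest in adherent animal 1 in 6 of 6 genes. CCNB1, the cyclin that drives entry into mitosis, measured 5.98, 7.73, 7.31, 7.25 and 5.90 in non-adherent animals 1 to 5 and 8.12, 5.17, 4.58, 4.49 and 4.84 in adherent animals 1 to 5. Non-adherent animals 2, 3 and 4 lay above non-adherent animals 1 and 5, and all 5 lay above adherent animals 2 to 5. The difference was 1.39 ± 0.66 with all arrays (adjusted p = 0.177) and 2.07 ± 0.36 without adherent animal 1 (adjusted p = 0.00244), or 4.18-fold, the widest of the 54. Adherent animal 1 stood 3.41 above the median of the other 4, or 10.7-fold, which was also the widest distance of the set. No CCNB1 value lay at or below its array's background, but adherent animals 3 and 4 came close to the adherent background means of 4.36 to 4.56. Both folds thus rest in part on values near that level. CDK1, the kinase that cyclin B1 activates, measured 3.57, 3.63, 4.30, 4.79 and 3.59 in non-adherent animals 1 to 5 and 5.13, 3.89, 3.38, 3.44 and 3.71 in adherent animals 1 to 5. Adherent animal 1 was the highest, followed by non-adherent animals 4 and 3, and the rest overlapped (0.07 ± 0.35, adjusted p = 0.924, and 0.37 ± 0.25, adjusted p = 0.321, without that array). CKS2, a small subunit of cyclin-dependent kinases, differed little apart from 1 array. It measured 5.08, 5.18, 5.48, 5.66 and 5.65 in non-adherent animals 1 to 5 and 7.72, 5.10, 5.68, 5.66 and 5.63 in adherent animals 1 to 5. The difference was -0.55 ± 0.40 with all arrays (adjusted p = 0.387) and -0.11 ± 0.16 without adherent animal 1 (adjusted p = 0.671). CCNB2, a second B-type cyclin, differed by 0.15 ± 0.42 with all arrays (adjusted p = 0.852) and passed the threshold without adherent animal 1 (0.60 ± 0.18, adjusted p = 0.038), though not when its probe sets were averaged (0.38, adjusted p = 0.0793), while the G1/S cyclins CCNE1 and CCNE2 lay 0.70 and 1.51 higher in adherent animal 1 and passed in neither fit.

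**Figure D2:**
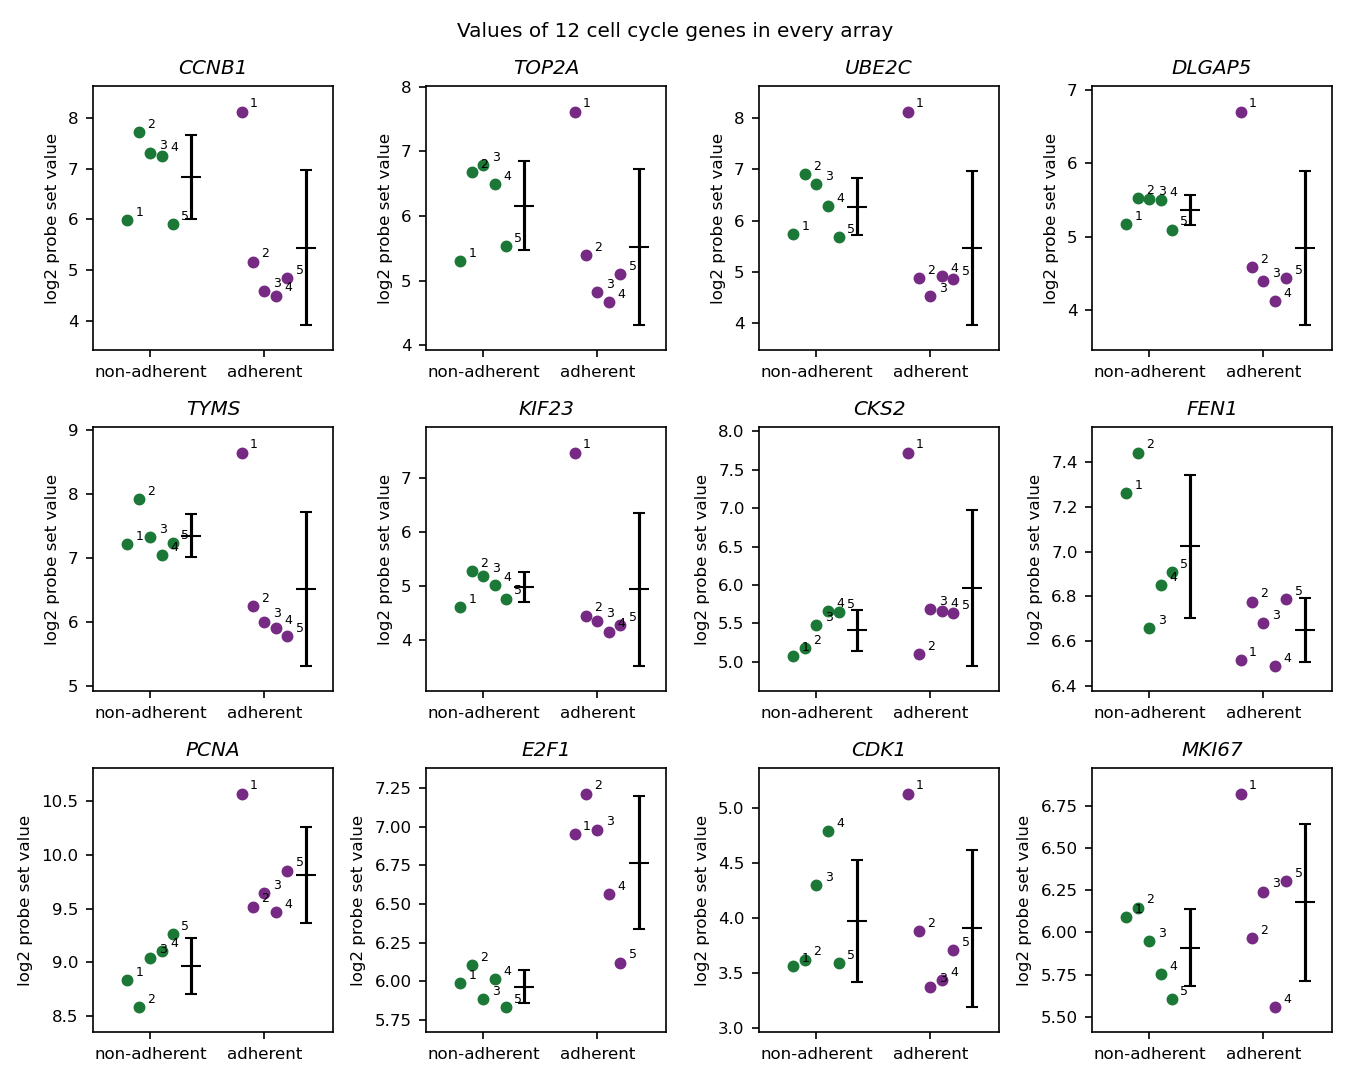
Log2 probe set value (vertical axis) of 12 genes on each array, non-adherent and adherent, with the animal number beside each point and bars for the mean ± SD of 5 arrays. Adherent animal 1 lies far above the other 4 adherent arrays for CCNB1, UBE2C, KIF23 and CKS2 and within their range for E2F1, and the groups do not overlap for PCNA and E2F1.

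Of the 10 mitotic and checkpoint kinases and checkpoint proteins, 0 passed with all arrays and 7 were higher in non-adherent cells without adherent animal 1, namely PLK1, TTK, BUB1, BUB1B, MAD2L1, MELK and BIRC5. With all arrays these 7 had differences from 0.03 to 0.41 and adjusted p from 0.243 to 0.965. BUB1B, a checkpoint kinase relative that restrains the anaphase-promoting complex, had a difference of 0.66 ± 0.13 without that array (adjusted p = 0.00572) and MELK, another kinase of dividing cells, one of 0.51 ± 0.10 (adjusted p = 0.00435). BUB1, a checkpoint kinase, differed by 0.48 ± 0.13 (adjusted p = 0.0189) and BIRC5, survivin, by 0.44 ± 0.12 (adjusted p = 0.0255), the latter call lost when its probe sets were averaged (0.16, adjusted p = 0.203). PLK1, a kinase needed at many steps of mitosis, differed by 0.63 ± 0.18 without it (adjusted p = 0.0283), and TTK, the kinase that sets up checkpoint signalling, by 0.52 ± 0.16 (adjusted p = 0.0361). MAD2L1, which holds back anaphase until chromosomes are attached, measured 5.96, 6.32, 6.80, 6.63 and 6.18 in non-adherent animals 1 to 5 and 6.72, 5.84, 5.75, 6.04 and 5.49 in adherent animals 1 to 5. The highest array was non-adherent animal 3, and adherent animal 1 came second (0.41 ± 0.23, adjusted p = 0.243, and 0.60 ± 0.17, adjusted p = 0.0297, without it). AURKB, the kinase of the chromosomal passenger complex, measured 5.43, 5.84, 5.87, 5.62 and 5.85 in non-adherent animals 1 to 5 and 5.83, 5.26, 5.13, 5.49 and 5.58 in adherent animals 1 to 5. Its groups overlapped in both fits (0.27 ± 0.14, adjusted p = 0.229, and 0.36 ± 0.13, adjusted p = 0.066), though with the animal as a block and without adherent animal 1 it passed (adjusted p = 0.0317). Its partners BIRC5 and CDCA8 in that complex lay 2.00 and 0.35 higher in adherent animal 1 on the probe sets used. On the other probe set of each, looked up after its values were seen, the distances of that array were -0.69 and 1.97. CHEK1, which acts in S phase when forks stall, lay at a distance of 0.00 there.

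The genes of anaphase were highest in adherent animal 1 in 4 of 4 cases. UBE2C, the ubiquitin-conjugating enzyme of the anaphase-promoting complex, measured 5.74, 6.91, 6.71, 6.29 and 5.69 in non-adherent animals 1 to 5 and 8.12, 4.88, 4.54, 4.92 and 4.86 in adherent animals 1 to 5. Every non-adherent array lay above adherent animals 2 to 5, and adherent animal 1 stood 3.25 above their median, or 9.52-fold. The difference was 0.80 ± 0.61 with all arrays (adjusted p = 0.404) and 1.47 ± 0.24 without that array (adjusted p = 0.00178), or 2.76-fold. PTTG1, securin, which guards the cohesin rings until anaphase, measured 5.51, 6.43, 6.24, 6.08 and 5.67 in non-adherent animals 1 to 5 and 7.44, 5.55, 5.28, 5.25 and 5.21 in adherent animals 1 to 5. Non-adherent animal 1 fell within the range of adherent animals 2 to 5, and the other non-adherent arrays lay above it (0.24 ± 0.40, adjusted p = 0.726, and 0.66 ± 0.18, adjusted p = 0.0225, without adherent animal 1). CDC20, the activator of that complex, and ESPL1, separase, lay 1.43 and 0.92 higher in adherent animal 1 and passed in neither fit.

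At the centromere, 3 of 4 genes were higher in non-adherent cells without adherent animal 1. NDC80, the kinetochore protein that grips microtubules, measured 3.74, 4.04, 4.42, 4.38 and 3.81 in non-adherent animals 1 to 5 and 5.13, 3.63, 3.31, 3.39 and 3.64 in adherent animals 1 to 5. CENPF, a kinetochore protein of G2 and mitosis, measured 5.03, 5.37, 5.23, 5.01 and 4.78 in non-adherent animals 1 to 5 and 5.93, 4.68, 4.76, 4.47 and 4.81 in adherent animals 1 to 5. For NDC80 all 5 non-adherent arrays lay above adherent animals 2 to 5, whereas for CENPF non-adherent animal 5 lay below adherent animal 5. NDC80 differed by 0.26 ± 0.31 with all arrays (adjusted p = 0.619) and 0.58 ± 0.16 without adherent animal 1 (adjusted p = 0.0227). CENPF differed by 0.15 ± 0.24 (adjusted p = 0.712) and 0.40 ± 0.13 (adjusted p = 0.0406). CENPE, a kinetochore motor, differed by 0.12 ± 0.35 (adjusted p = 0.851) and 0.50 ± 0.14 (adjusted p = 0.0229). CENPA, the histone H3 variant of the centromere, differed by 0.14 ± 0.32 (adjusted p = 0.809) and 0.46 ± 0.18 (adjusted p = 0.0965). Without adherent animal 1 and with the animal as a block, CENPA passed (adjusted p = 0.0067).

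In the mitotic chromosome, TOP2A, NCAPG and NCAPH were higher without adherent animal 1 and MKI67 was not. TOP2A, the topoisomerase that untangles sister chromatids, measured 5.31, 6.68, 6.79, 6.49 and 5.54 in non-adherent animals 1 to 5 and 7.61, 5.40, 4.82, 4.67 and 5.10 in adherent animals 1 to 5. Non-adherent animals 2 to 5 lay above all of adherent animals 2 to 5, and non-adherent animal 1 lay within their range (0.64 ± 0.53, adjusted p = 0.447, and 1.16 ± 0.31, adjusted p = 0.0207, or 2.24-fold, without adherent animal 1). The condensin subunits NCAPG and NCAPH, which compact the chromosomes, differed by 0.66 ± 0.13 (adjusted p = 0.00487) and 0.68 ± 0.18 (adjusted p = 0.0188) without it, and by 0.22 ± 0.39 (adjusted p = 0.744) and 0.34 ± 0.33 (adjusted p = 0.523) with it. MKI67, the Ki-67 antigen used to count cycling cells, measured 6.09, 6.15, 5.95, 5.75 and 5.61 in non-adherent animals 1 to 5 and 6.82, 5.97, 6.24, 5.56 and 6.30 in adherent animals 1 to 5. The groups overlapped with and without adherent animal 1 (-0.27 ± 0.21, adjusted p = 0.411, and -0.11 ± 0.17, adjusted p = 0.686). The usual marker of proliferation thus gave no call in either fit on this array.

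Of 9 spindle and midzone genes, 8 were highest in adherent animal 1, and 6 were higher in non-adherent cells without it: KIF11, KIF23, TPX2, HMMR, ASPM and DLGAP5. KIF23, a motor of the central spindle needed for cytokinesis, measured 4.62, 5.29, 5.20, 5.03 and 4.78 in non-adherent animals 1 to 5 and 7.48, 4.46, 4.36, 4.16 and 4.28 in adherent animals 1 to 5. DLGAP5, which bundles spindle microtubules, measured 5.17, 5.53, 5.51, 5.50 and 5.09 in non-adherent animals 1 to 5 and 6.71, 4.58, 4.39, 4.12 and 4.44 in adherent animals 1 to 5. In both, every non-adherent array lay above adherent animals 2 to 5 and below adherent animal 1. KIF23 differed by 0.03 ± 0.55 with all arrays (adjusted p = 0.974) and 0.67 ± 0.14 without that array (adjusted p = 0.00649). DLGAP5 differed by 0.51 ± 0.41 (adjusted p = 0.432) and 0.98 ± 0.13 (adjusted p = 0.000471). KIF11, the motor that pushes the spindle poles apart, differed by 1.01 ± 0.25 without it (adjusted p = 0.016), and TPX2, which helps to build the spindle, by 0.91 ± 0.22 (adjusted p = 0.0124), a call lost when its probe sets were averaged (0.44, adjusted p = 0.0864). HMMR, a microtubule-binding protein, and ASPM, a spindle pole protein, differed by 0.45 ± 0.12 (adjusted p = 0.0205) and 0.35 ± 0.12 (adjusted p = 0.0497) without it. Blocking on the animal ended the ASPM call (adjusted p = 0.0882). With all arrays KIF11 differed by 0.49 ± 0.50 and TPX2 by 0.46 ± 0.44 (adjusted p = 0.540 and 0.515), and HMMR and ASPM by 0.02 ± 0.39 and 0.00 ± 0.32 (adjusted p = 0.981 and 0.999). NUSAP1, which binds spindle microtubules, and KIF2C, a kinesin that takes microtubules apart, lay 1.36 and 0.75 higher in adherent animal 1 and passed in neither fit. PRC1, which crosslinks the midzone microtubules, measured 5.37, 4.98, 4.90, 4.52 and 4.82 in non-adherent animals 1 to 5 and 4.63, 4.94, 4.90, 4.47 and 4.72 in adherent animals 1 to 5. On this probe set it was highest in non-adherent animal 1 and adherent animal 1 was not raised (0.19 ± 0.15, adjusted p = 0.438, and 0.16 ± 0.16, adjusted p = 0.516, without it). On the other PRC1 probe sets, looked up after their values were seen, adherent animal 1 lay 0.20, 0.45 and 0.54 above the median of the other 4 adherent arrays. The place of PRC1 in that array thus depends on the probe set.

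**Figure D3:**
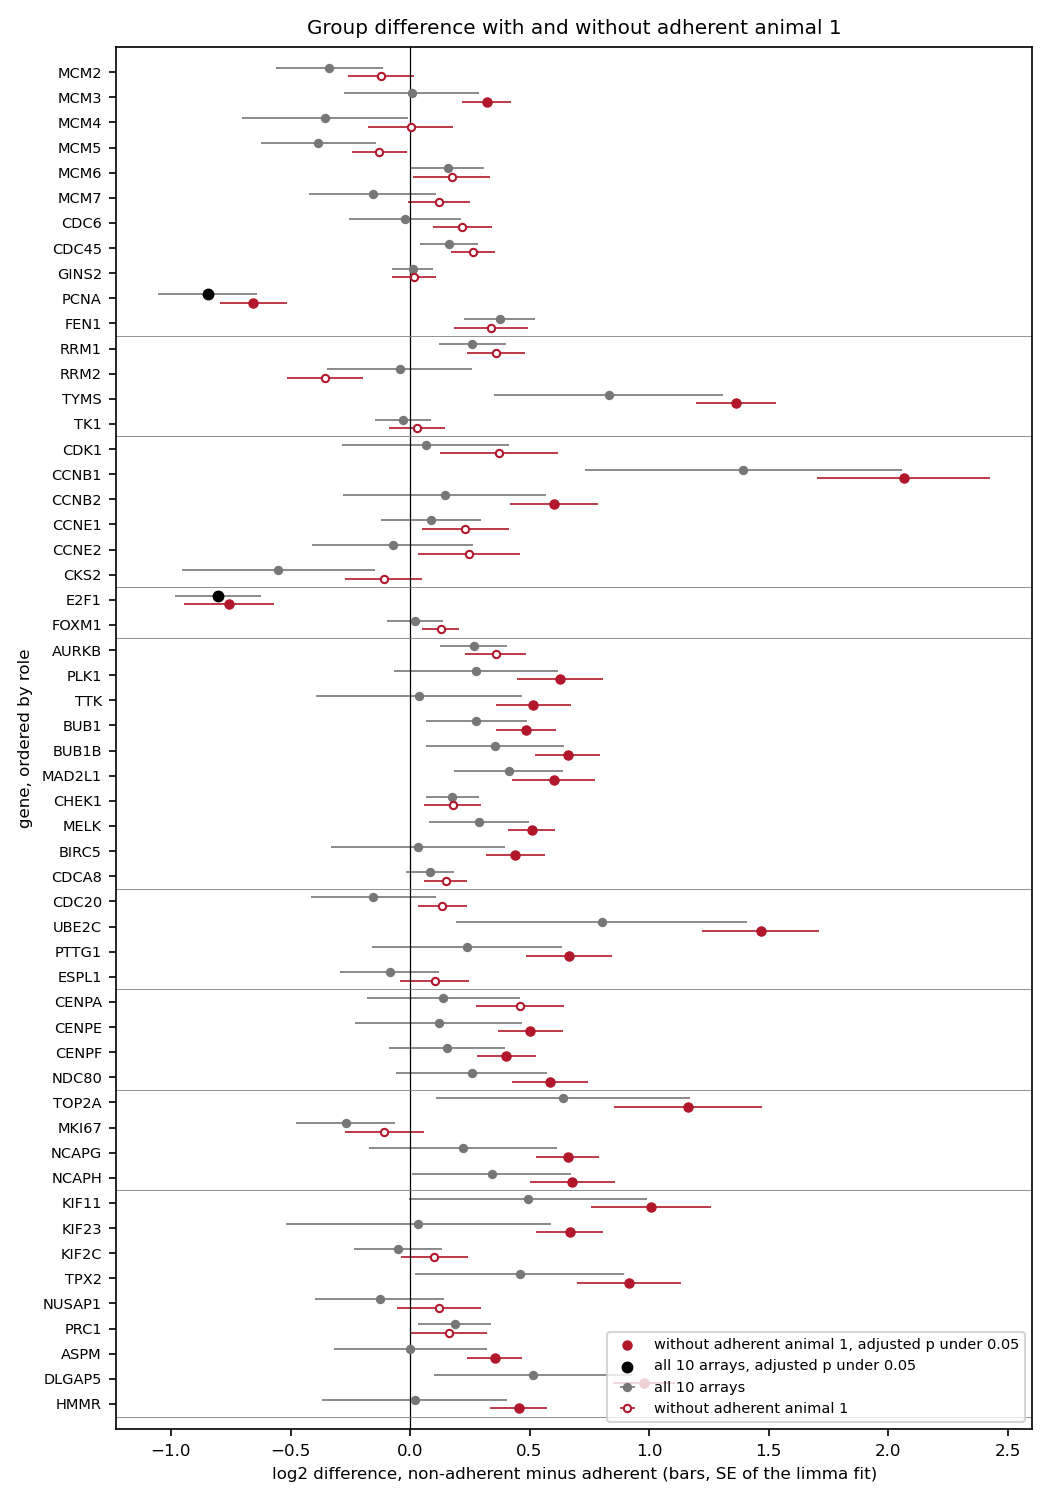
Log2 difference (non-adherent minus adherent, horizontal axis) of each of the 54 genes by role, with all 10 arrays and without adherent animal 1, and bars for the SE. With all arrays only PCNA and E2F1 pass the threshold, both below 0, and without adherent animal 1 a further 25 genes pass above 0, with CCNB1 farthest out at 2.07.

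The 25 genes that were higher without adherent animal 1 had differences from 0.32 to 2.07. In 17 of them the 5 non-adherent and the 4 remaining adherent arrays did not overlap. Over the 54 genes, 18 did not overlap in that direction and 2 in the other, against 9.25% and 12.1% of all genes. With all 10 arrays these counts were 0 and 2, against 6.35% and 8.63%. When a second array was left out in turn as well, 12 to 25 of the 54 genes were higher, the fewest without adherent animal 4, against 6.49% to 8.96% of all genes. The 10 genes that passed in all 9 of those fits were TYMS, CCNB1, UBE2C, DLGAP5, KIF23, BUB1B, MELK, NCAPG, KIF11 and TPX2. At the other end, CENPF and ASPM passed in 1 of the 9 fits and MCM3 in 2.

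Array by array, the median distance of the 54 genes from their median over the 10 arrays was 1.28 in adherent animal 1 and -0.17, -0.13, -0.30 and -0.13 in adherent animals 2 to 5. In non-adherent animals 1 to 5 it was -0.03, 0.21, 0.28, 0.17 and 0.01. Adherent animal 4 was the lowest of the 10 arrays for 21 genes, more than any other array. Within the non-adherent group, animals 2 and 3 were the highest of the 5 arrays for 20 and 19 genes, and animals 1 and 5 the lowest for 22 and 20. Within each animal, 46, 41, 48 and 43 of the 54 genes were higher in the non-adherent cells of animals 2, 3, 4 and 5, with median differences of 0.45, 0.47, 0.47 and 0.16. In animal 1 it was 4 of 54, with a median of -1.32. The 4 were FEN1, RRM2, CHEK1 and PRC1. An F test of the animals, with group in the model, called 0 of the 54 genes, against 0.204% of all genes, and 0 against 2.52% without adherent animal 1.

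**Figure D4:**
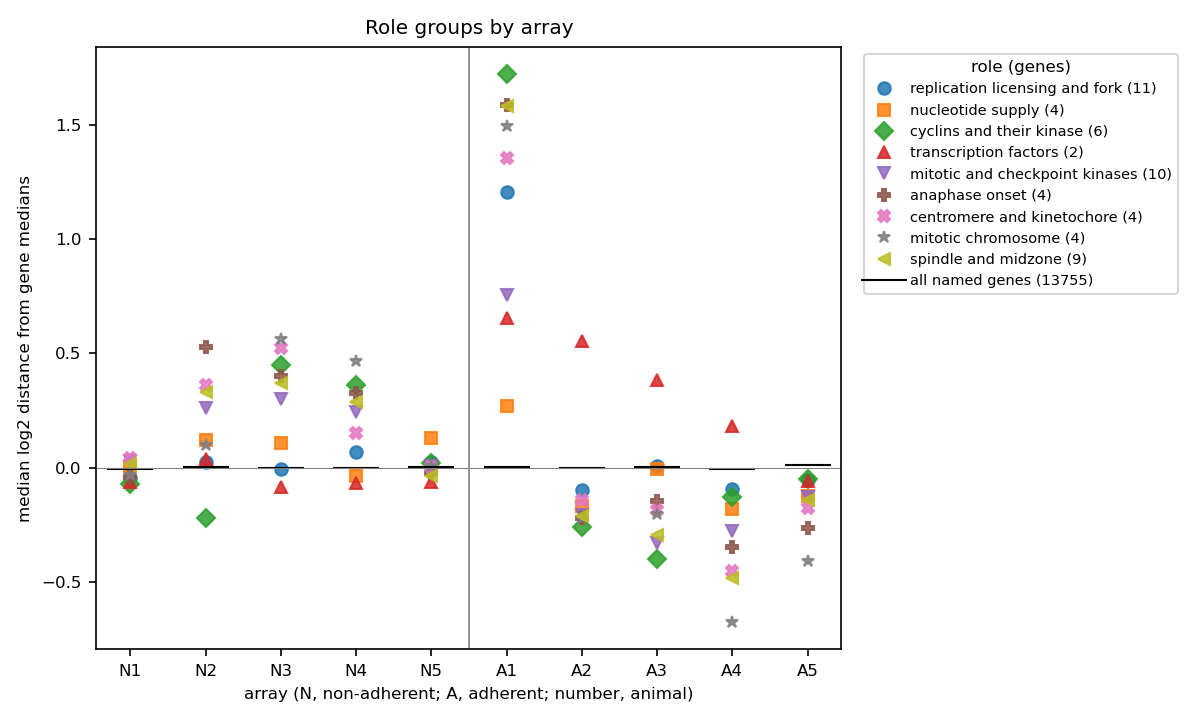
Median distance of each role group's genes from their median over the 10 arrays (vertical axis, log2 scale) on each array (horizontal axis). Adherent animal 1 stands above all other arrays in every role group, least so for the transcription factors (0.66 against 0.55 in adherent animal 2). In the spindle group non-adherent animals 2 to 4 lie above non-adherent animals 1 and 5.

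The 54 genes have 103 probe sets, and 25 genes have more than 1. Among the 49 probe sets not used above, adherent animal 1 was the highest array in 30 and at least a log2 of 1 above the median of its group in 20. In 11 of the 25 genes the probe set used differed in sign from another of the same gene. In 16 of the 54 genes the mean of the probe set used was no higher than the median of all probe sets on the array. Levels of different genes come from different probes and are not compared here.

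Markers of other cell types were measured beside these values, 6 of 10 for B and plasma cells, 7 of 10 for granulocytes and mast cells, 11 of 12 for epithelium, 12 of 16 for T cells and 10 of 10 for NK cells. Of these, 3, 6, 6, 8 and 4 had a mean over the array median, and log2 array values have no true 0. On adherent animal 1 the summed log2 level was 33.6 for B and plasma cell markers, against 30.7 to 31.1 in adherent animals 2 to 5, 57.0 against 50.2 to 53.9 for granulocytes and mast cells, and 65.7 against 61.5 to 63.6 for epithelium. For T cell markers it was 66.0 against 66.3 to 68.8, and for NK cells 51.7 against 51.0 to 53.0. Erythroid markers, 4 of 7 measured, summed to 20.2 against 18.8 to 19.8. Fibroblast and endothelial markers, 10 of 10 measured, summed to 52.7 against 50.6 to 52.2. Single markers moved more than their lists. The 7 granulocyte and mast cell markers had a median distance of -0.03 from the median of the other 4 adherent arrays, with CSF3R at 3.08, CXCR2 at 1.78 and S100A9 at 0.67, and with HDC, MPO, S100A8 and KIT at -0.03, -0.06, -0.21 and -0.80. The 12 T cell markers had a median of -0.0025, with IL7R at -2.68 and the others from -0.32 to 0.68. The 6 B and plasma cell markers had a median of 0.26, with TNFRSF17 at 1.48 and the others from -0.06 to 0.65. The 11 epithelial markers had a median of 0.18, from -0.58 for EPCAM to 1.76 for CDH1. The 11 macrophage markers had a median of 0.49, from -0.15 for ITGAM to 2.35 for CD163. The non-adherent arrays summed to 54.4 to 56.9 for granulocyte and mast cell markers and to 64.0 to 69.0 for T cells. Of 7 granulocyte and mast cell markers, 3 were highest of the 10 arrays in adherent animal 1, and of 11 epithelial markers 5 were. The part of these differences in the proliferation values was not tested.

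The related genes outside the set were read from the same fit, in 4 lists. For the G1 cyclins and growth entry genes, 21 of 24 were measured, 6 were higher and 2 were lower in non-adherent cells with all arrays, which is 28.6% and 9.52% against 6.72% and 9.78% of all genes, and 2 were highest in adherent animal 1, a place held by 19.2% of all genes. The 6 were CCND2, CDK7, CCND3, CCNH, MNAT1 and E2F3. CCND2, a D-type cyclin that links growth factors to the cycle, measured 9.19, 8.26, 7.98, 8.32 and 7.50 in non-adherent animals 1 to 5 and 6.67, 6.50, 6.27, 6.77 and 6.03 in adherent animals 1 to 5. The groups were well apart, with non-adherent animal 1 the highest (1.80 ± 0.27, adjusted p = 0.00144, and 1.86 ± 0.28, adjusted p = 0.00111, without adherent animal 1). With its 4 probe sets averaged the difference was 0.91. CDK7, which activates other cyclin-dependent kinases and also acts in transcription, measured 9.08, 9.27, 9.48, 9.27 and 9.30 in non-adherent animals 1 to 5 and 7.85, 8.53, 8.53, 8.66 and 8.17 in adherent animals 1 to 5. It did not overlap either (0.93 ± 0.15, adjusted p = 0.00229, and 0.81 ± 0.12, adjusted p = 0.00083, without adherent animal 1). CCNH and MNAT1, its partners in the CDK-activating kinase, were looked up after the values were seen and were higher by 0.32 ± 0.07 (adjusted p = 0.0108) and 0.62 ± 0.19 (adjusted p = 0.0441), the latter call lost in 7 of 10 fits without a single array. CDK4 and CDK6, the partners of the D-type cyclins, were lower in non-adherent cells.

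CDK4 measured 10.62, 10.43, 10.75, 10.79 and 10.76 in non-adherent animals 1 to 5 and 11.18, 11.10, 11.35, 11.92 and 11.11 in adherent animals 1 to 5, without overlap (-0.66 ± 0.16, adjusted p = 0.015, and -0.70 ± 0.16, adjusted p = 0.0112, without adherent animal 1). Without animal 3 the adjusted p of CDK4 was 0.0663. CDK6 measured 8.68, 8.33, 8.63, 9.07 and 8.85 in non-adherent animals 1 to 5 and 8.80, 9.74, 9.97, 9.95 and 10.03 in adherent animals 1 to 5, with adherent animal 1 down among the non-adherent arrays (-0.99 ± 0.23, adjusted p = 0.0145, and -1.21 ± 0.14, adjusted p = 0.000195, without it). The CDK6 call was lost without animal 2, 3 or 5 (adjusted p = 0.0659, 0.0836 and 0.0652) and when its 4 probe sets were averaged (-0.24, adjusted p = 0.634).

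Of the inhibitors and quiescence genes, 31 of 37 were measured, with 2 higher and 2 lower both with and without adherent animal 1, or 6.45% each way. The shares of all genes were 6.72% and 9.78% with that array and 9.34% and 13% without it. Of the 31, 15 were highest in adherent animal 1, and GADD45B, GADD45A and BTG2, growth arrest genes chosen after their values were seen, lay 3.98, 3.08 and 2.96 above its group there. CDKN1B, the inhibitor p27, measured 9.21, 9.23, 9.50, 9.19 and 9.54 in non-adherent animals 1 to 5 and 8.52, 8.80, 8.93, 8.65 and 8.82 in adherent animals 1 to 5. Every non-adherent array lay above every adherent array (0.59 ± 0.11, adjusted p = 0.0045, and 0.53 ± 0.11, adjusted p = 0.00485, without adherent animal 1). RB1, which holds E2F factors in check, was higher by 0.37 ± 0.09 (adjusted p = 0.0213), with values of 10.11 to 10.36 against 9.71 to 10.04, and the call was lost without non-adherent animal 3 (adjusted p = 0.0534) and when its probe sets were averaged (0.17, adjusted p = 0.178). RBBP4, a histone chaperone that binds RB1, was lower, at 5.05 to 5.44 against 5.42 to 6.63 (-0.91 ± 0.20, adjusted p = 0.0117, and 0.0622 without animal 4). TOB1, an antiproliferative protein, measured 9.30 to 9.66 in non-adherent cells, 9.86 to 10.14 in adherent animals 2 to 5 and 11.01 in adherent animal 1 (-0.65 ± 0.20, adjusted p = 0.0454). The TOB1 call was lost in 7 of 10 fits without a single array, with adjusted p up to 0.1. Without adherent animal 1 all 4 of these genes passed, with adjusted p from 0.00485 for CDKN1B to 0.0286 for RB1.

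Of the other replication genes, 48 of 57 were measured, 2 were higher and 3 lower with all arrays, or 4.17% and 6.25% against 6.72% and 9.78% of all genes. Without adherent animal 1, 10 were higher and 3 lower, or 20.8% and 6.25% against 9.34% and 13%. Of the 48, 25 were highest in adherent animal 1. RFC3, a subunit of the loader that places PCNA on DNA, measured 7.92, 7.63, 8.24, 8.01 and 7.93 in non-adherent animals 1 to 5 and 6.85, 7.04, 6.89, 6.47 and 6.24 in adherent animals 1 to 5. It lay higher in non-adherent cells, the opposite of PCNA, without overlap (1.25 ± 0.16, adjusted p = 0.000702, and 1.28 ± 0.17, adjusted p = 0.000518, without adherent animal 1). DNMT1, the methyltransferase that copies DNA methylation, was higher by 0.65 ± 0.13 (adjusted p = 0.00728), at 5.69 to 6.15 against 4.92 to 5.56, by 0.38 with its probe sets averaged, and by 0.62 ± 0.14 without adherent animal 1 (adjusted p = 0.0091). WDHD1, a replisome adaptor for DNA polymerase alpha, was lower. It measured 8.10, 7.65, 7.16, 7.51 and 7.68 in non-adherent animals 1 to 5 and 10.36, 9.85, 8.89, 9.28 and 9.11 in adherent animals 1 to 5, again without overlap (-1.88 ± 0.27, adjusted p = 0.00115, and -1.66 ± 0.21, adjusted p = 0.000372, without adherent animal 1). With both probe sets averaged the difference was -0.91. POLD2, a subunit of DNA polymerase delta, was lower too, at 6.33 to 7.03 against 7.21 to 8.23 (-0.88 ± 0.19, adjusted p = 0.00913, and -0.73 ± 0.14, adjusted p = 0.00453, without adherent animal 1). RPA2, which coats single-stranded DNA, was the third lower gene (-0.44), and its call was lost in 7 of 10 fits without a single array.

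Of the other mitosis genes, 59 of 75 were measured and 41 were highest in adherent animal 1, against 19.2% of all genes. With all arrays 0 were higher and 3 were lower, the latter 5.08% against 9.78% of all genes. Without adherent animal 1 the counts were 14 and 2, or 23.7% and 3.39% against 9.34% and 13%, with a median difference of 0.21. NCAPH2, a subunit of condensin II, was lower with all arrays, at 5.91 to 6.30 against 6.39 to 6.63 (-0.41 ± 0.10, adjusted p = 0.016, and 0.0708 without animal 5). Without adherent animal 1 it was -0.39 ± 0.10 (adjusted p = 0.0205). H2AFZ, the histone variant H2A.Z, was lower too, at 8.93 to 9.22 against 9.32 to 10.60 (-0.70 ± 0.20, adjusted p = 0.0374, and -0.49 ± 0.11, adjusted p = 0.00769, without adherent animal 1). The H2AFZ call was lost in 8 of 10 fits without a single array and when its 3 probe sets were averaged (-0.03, adjusted p = 0.867). MAD1L1, the anchor of MAD2L1, was the third lower gene (-0.33, adjusted p = 0.0494), and its call was lost in 9 of 10 such fits, that without adherent animal 1 among them (adjusted p = 0.0651).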

How the data were processed

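The authors deposited log2 probe set values for 10 Affymetrix Snowball arrays; per the submitters' processing notes, RMA and Partek were used, with no version named. The sources used here do not say whether both array series were normalized in 1 run. The number of arrays limits the precision. Groups follow the cell type label, and animal numbers the sample titles. The 54 genes and all lists were chosen with earlier results of these data known.

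The platform annotation gave 1 gene symbol to 26426 of 47845 probe sets, none to 21419 and several to 0, which gave 13755 genes, each read from the probe set of highest mean over all arrays. Differences are non-adherent minus adherent, fitted in limma 3.58.1 (R 4.3.3, lmFit and eBayes, 2-sided, Benjamini-Hochberg over all 13755 genes, threshold 0.05) without a block. "Higher", "lower" and "passed" refer to that threshold. The fits were tried on simulated data with independent normal noise and no array standing apart, unlike the arrays here. Of genes changed by a log2 of 0.5, 1 and 2 between the groups, 40.3%, 86.6% and 93.9% were recovered, and 6 of 153 called genes were unchanged.

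The same pigs gave both groups, so animal numbers pair the arrays. The 2 arrays of a pig had residual correlations over all genes of 0.116, 0.22, 0.398, 0.364 and 0.394 for animals 1 to 5, and for animal 1 the highest with another pig's array was 0.212. Values in every array are given for MKI67, TOP2A, PCNA and CDK1, for genes past the threshold, for the 2 genes of lowest p in each role group, and for the 5 in which adherent animal 1 lay farthest from its group; from each related list, up to 2 genes per direction are described, and other called genes were named after their values were seen. Alternatives were the animal as a block, centred and quantile-normalized arrays, array weights, trended and robust variance, a filter on low values, a size threshold, averaging a gene's probe sets, and leaving out arrays or animals. Those combining a second choice with the loss of adherent animal 1 were added after seeing the data. Figures were drawn with matplotlib 3.10.9.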

Additional observations from a re-analysis of the deposited data

Results flagged for a closer look

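Among the 5 adherent arrays, 1 array lay far from the others by Dixon's ratio, the gap to the nearest array divided by the group's range, with a critical value of 0.71. For the median distance of the 54 genes the ratio was 0.890, with adherent animal 1 highest. Of the genes described array by array, it was also far above the rest for TOP2A (0.753), CDK1 (0.711), TYMS (0.839), CCNB1 (0.815), CKS2 (0.778), FOXM1 (0.784), UBE2C (0.894), PTTG1 (0.850), NDC80 (0.817), CENPF (0.771), DLGAP5 (0.820) and KIF23 (0.911). Among the related genes, adherent animal 1 was far above for TOB1 (0.757) and far below for CDK6 (0.759), and non-adherent animal 2 was far below its group for TOB1 (0.748).

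For an array not picked beforehand, chance gives such a ratio in about 1 in 20 groups. Adherent animal 1 was known to stand apart, and the 54 genes were read from the same arrays. Its ratios are therefore a description and no test. Over all genes such a ratio occurred in 11.2% for the adherent and 5.37% for the non-adherent arrays. Among the 54 genes it occurred in 32 for the adherent arrays, 31 of them with adherent animal 1 highest, against 4.05% of all genes. The other was MCM6, with adherent animal 4 lowest (0.804), and the non-adherent arrays gave 0 of 54.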

How the results depend on the processing

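Leaving out 1 array, 1 animal, or adherent animal 1 with a second array gave 387 to 1285 genes higher and 732 to 1782 lower in non-adherent cells, 0 to 25 of the 54 genes higher and 0 to 3 lower, and 1 to 347 genes that differed among animals. With the animal as a replicate block, 1080 genes were higher and 1426 lower, and 0 and 2 of the 54, so the paired fit changed no call among them with all arrays. Without adherent animal 1 the replicate block gave 1584 genes and 27 of the 54 higher, averaged probe sets gave 21 of the 54 higher and 1 lower (1170 and 1709 of all genes), centred arrays 1933 genes and 28 of the 54 higher, and quantile normalization 1399 and 22. With all arrays, centring gave 1509 genes higher and 1060 lower in place of 925 and 1345. Array weights, with 0.231 for adherent animal 1, gave 9 of the 54 and 1365 of all genes higher, averaged probe sets 1 of the 54 lower, and a size threshold of log2 1 gave 128 and 199 genes and 0 of the 54 lower. Trended and robust variance gave 46 genes that differed among animals.

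The sign turned for CDK1 with quantile normalization (-0.0019), averaged probe sets (-0.050) and arrays left out (-0.26 to 0.47), KIF23 with quantile normalization (-0.0096) and arrays left out (-0.17 to 0.76), FOXM1 with arrays left out (-0.046 to 0.16), and, without adherent animal 1 and with averaged probe sets, MKI67 (0.015) and H2AFZ (0.028). Apart from the settings that hold fewer arrays, the cause of these changes was not tested. The 34 genes named by the rule all kept their direction and call with the replicate block and all arrays, 32 did with centred arrays and 28 with averaged probe sets. With 5 arrays per group, a gene that did not pass is not shown to be equal, and array series and sort cannot be told apart from adherence.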

Other observations

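Among related mitosis and replication genes, chosen after their values were seen, several were also higher in non-adherent cells without adherent animal 1. HMGB2, a chromatin protein of cycling cells, had a difference of 1.01 ± 0.12 (SE, limma, adjusted p = 0.000307) and ANLN, anillin of the cleavage furrow, one of 1.17 ± 0.20 (adjusted p = 0.00216). SMC2 and SMC4, the core of condensin, differed by 0.61 and 0.65. POLE2, a subunit of DNA polymerase epsilon, differed by 0.67, and adherent animal 1 stood 3.48 above the median of the other 4 adherent arrays. With all arrays HMGB2, ANLN, SMC2, SMC4 and POLE2 differed by 0.59, 0.68, 0.30, 0.47 and -0.03. None of these passed with all arrays (adjusted p from 0.127 to 0.983). E2F3, another activator of S phase genes, was higher with all arrays (0.87 ± 0.17, adjusted p = 0.0067), opposite to E2F1. The E2F3 difference was 0.31 when its probe sets were averaged (adjusted p = 0.0157), and without animal 3 its adjusted p was 0.0502.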
